A study of Mus musculus with 8 samples.

Results

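The measurements described here come from the 4 arrays hybridised with RNA from exosomes, among 8 arrays in all. The arrays were chosen by their titles, which name them exosomal RNA, biological replicates 1 to 4. Exosomes are small vesicles that cells release when endosomal compartments fuse with the plasma membrane. These were pelleted from the supernatant of MC/9, an established murine mast cell line, after spins and a 0.22 µm filter that remove cells and debris. No agent was compared between groups. All cultures, including those of the 4 cell arrays, grew in medium with 10% fetal bovine serum and 10% rat T cell supplement containing concanavalin A, and the pellet may hold RNA that is not from MC/9. Each extract was measured on an Affymetrix Mouse430_2 array, which reads most mouse transcripts with short probes near their 3′ ends. The question was which probe sets were brightest on the exosome arrays, how well the 4 arrays agreed, and how they differed between their hybridisation dates. Replicates 1 and 2 were hybridised on date 1 and replicates 3 and 4 on date 2, each date with 2 cell arrays. Each date used its own fluidics station, so date and station cannot be told apart. The samples are called biological replicates, with no word that they came from separate cultures, and their small number limits the precision of every value.

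Messenger RNAs of ribosomal proteins are among the most abundant transcripts of growing cells, and many of them begin with a run of pyrimidines, the 5′ terminal oligopyrimidine tract, through which their translation is controlled. Mast cells are known for the high-affinity IgE receptor, the receptor kinase Kit and granule proteases such as Cpa3. Exosomes enclose RNA of the cell that sheds them, in part as fragments and small RNAs, and an array labelled from the poly-A tail reads only part of it.

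The promoters of ribosomal protein genes show the start of such messages. Shown are the 6 best-ranked ones that have a promoter entry, because the date comparison below turns on this gene family. Each window holds 40 bases before and 20 bases from the start of the gene, from RefSeq on GRCm38.p6, and capitals mark a C followed by 4 bases that are each C or T, read on the transcript strand within 2 bases of the start. The windows lie at chr11:114668540-114668599 on the plus strand (Rpl38), chr2:39005112-39005171 on the minus strand (Rpl35), chr2:26910767-26910826 on the plus strand (Rpl7a), chr17:33824543-33824602 on the minus strand (Rps28), chr17:24720023-24720082 on the plus strand (Rps2) and chr1:72711220-72711279 on the plus strand (Rpl37a).
Rpl38: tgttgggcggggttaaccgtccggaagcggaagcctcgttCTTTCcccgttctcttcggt
Rpl35: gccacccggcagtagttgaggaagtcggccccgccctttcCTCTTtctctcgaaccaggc
Rpl7a: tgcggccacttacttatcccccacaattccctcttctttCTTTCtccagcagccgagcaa
Rps28: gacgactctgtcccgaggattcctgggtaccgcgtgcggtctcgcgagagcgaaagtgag
Rps2: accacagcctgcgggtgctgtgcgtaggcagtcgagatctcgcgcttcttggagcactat
Rpl37a: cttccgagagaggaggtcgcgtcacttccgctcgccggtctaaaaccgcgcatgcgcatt
The first 3 hold these letters near the start and the windows of Rps28, Rps2 and Rpl37a do not. Of 13 ribosomal protein genes that were in the top 1% on all exosome arrays and had a promoter entry, 6 held them (46.2%). The share was 33.3% of 27 other ribosomal protein genes on the array, 12.2% of 41 other genes of the top list and 10.6% of all 27025 genes in the promoter table. A match describes the letters in the window, and annotated starts can lie some bases from the true one.

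The deposited values are signals on a linear scale, set so that the trimmed mean of each array is 100. A detection floor was taken on each array as the 95th percentile of 148 probe sets for genes that mast cells are not known to express, such as olfactory receptors. It was 247 and 282 on the exosome arrays of date 1 and 267 and 317 on those of date 2, against 10.5 to 16.6 on the cell arrays. Above it lay 3813 and 2701 probe sets on date 1 and 2853 and 1811 on date 2, or 4.02% to 8.47% of the 45037 probe sets that are not Affymetrix controls. About 5% of probe sets with no transcript would pass such a floor by its construction. On all 4 exosome arrays 671 probe sets passed. Of the 18193 genes with a probe set of their own, 304 (1.67%) had their brightest probe set above the floor on all 4 arrays and 80.2% on none.

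The brightest signals were concentrated in few probe sets, and those that led the list mostly carried no gene name. The 10 brightest probe sets held 5.70% to 6.99% of the summed signal of an exosome array, against 1.21% to 1.32% on the cell arrays. The top 1%, 451 probe sets on each array, held 22.8% and 23.2% of the summed signal on date 1 and 17.2% and 18.3% on date 2. On the cell arrays the top 1% held more, 28.5% to 33.0%, so the larger exosome share was that of the 10 brightest. Ranks set signals of different probe sets side by side, and since signals also depend on the probes, they do not rank transcript amounts. In a pooled extract, fewer vesicles that carry a transcript and less of it per vesicle cannot be told apart.

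One unnamed probe set, 1424609_a_at, ranked 1 on every exosome array, with signals of 71845 and 80303 on date 1 and 57863 and 85665 on date 2. Its values on the dates overlapped, and on the cell arrays it read 616 and 570 on date 1 and 122 and 99.8 on date 2. Another, 1458382_a_at, read 25353, 30322, 25505 and 25415 in replicates 1 to 4. Its dates overlapped, and it was under the floor on all 4 cell arrays, where its signal was 2.01 ± 1.09 (SD, n = 4). Of the 20 probe sets with the best mean rank, 13 had no gene symbol, 3 had several and 4 had one, and 0 were ribosomal. The unnamed probe set 1456319_at read 34978 and 33211 on date 1 and 6559 and 5645 on date 2. Its dates stood apart, with both arrays of date 2 lower.

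In all, 246 probe sets were in the top 1% on all 4 exosome arrays. They were 54.5% of each array's list and 33.7% of the 729 that reached the top 1% on any array. Of the 246, 83 had no symbol (33.7%, against 20.3% of all probe sets) and 80 had several. The other 83 had a single symbol and stood for 68 genes. Symbols of cytosolic ribosomal proteins stood on 70 of the 246, 28.5%, against 0.464% of all probe sets; 49 of these 70 matched several genes. Probe sets with the suffix _x_at, which Affymetrix gives where probes may bind several transcripts, were 33.7% of the list and 5.42% of all. The 389 probe sets in the top 1% on all 4 cell arrays had similar shares. Of these, 35.2% carried ribosomal protein symbols, 34.4% had the suffix _x_at and 27.8% had several symbols. The share with no symbol was lower there, 9.25%. On the cell arrays, 188 of the 246 (76.4%) were above the floor on all 4 and 33 (13.4%) on none. Among all probe sets these shares were 40.1% and 43.4%. The top 1% on all cell arrays shared 104 probe sets with the list, 42.3% of the exosome list and 26.7% of the cell list. When probe sets are ordered by mean rank over the 4 exosome arrays, Senp3 and Gm10512 lay just inside place 451 and Spin1 and Cd151 just outside. This order is not membership of the top 1%. On single arrays, Senp3 and Cd151 were in the top 1% on 0, Gm10512 on 1 and Spin1 on 2. Senp3, a SUMO protease, read 499, 359, 507 and 495 in replicates 1 to 4, with replicate 2 the low one, while Spin1, a histone reader, read 387 and 331 on date 1 and 1618 and 989 on date 2.

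Membership of the top 1% also followed the date. On exactly 2 arrays were 205 probe sets: 90 of these were on both arrays of date 1, 91 on both arrays of date 2 and 24 on arrays of different dates. Of the 90 on date 1 alone, 24 carried ribosomal protein symbols and 70 passed the floor on each of the 4 cell arrays. Of the 91 on date 2 alone, 0 carried ribosomal protein symbols, 43 passed the floor on each cell array (47.3%) and 36 on none of them (39.6%). The last 2 shares were near the 40.1% and 43.4% of all probe sets. The median mean signal on the cell arrays was 2074 for the date 1 probe sets and 14.9 for those of date 2, against 10.9 for all. These are descriptions, since the dates chose both lists.

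The 25 best-ranked genes with a probe set of their own held enzymes, ribosomal proteins and predicted genes. Highest by rank was Bzw2, whose product has a W2 domain like those of some translation initiation factors. Its signals were 18834 and 20985 on date 1 and 13917 and 14189 on date 2. All were far above its signals on the cell arrays, 17.2 to 61.2, and those of date 2 were the lower. Bzw2 has 2 other probe sets, of which 0 passed the floor on every exosome array and 0 were under it on all 4. Gm9222, a predicted gene, read 11453 and 11086 on date 1 and 15614 and 17890 on date 2. It went the other way, with both arrays of date 2 higher. Mtm1, which encodes the phosphoinositide phosphatase myotubularin, read 12540 and 13182 on date 1 and 8760 and 8503 on date 2. Shmt1, the cytosolic serine hydroxymethyltransferase of folate metabolism, read 7901, 7205, 5278 and 7448 in replicates 1 to 4. Its dates overlapped, and its 3 other probe sets were under the floor on all exosome arrays.

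**Figure D1:**
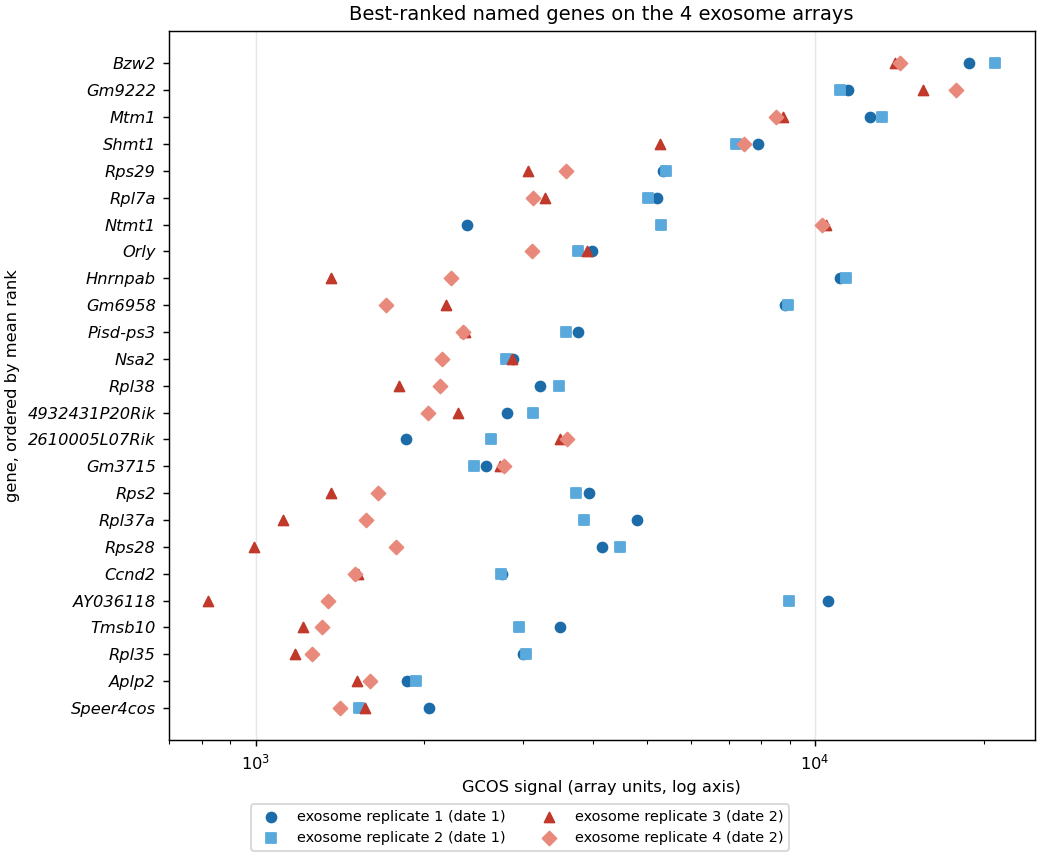
Signal of the 25 best-ranked genes on each exosome array (log axis, array units), ordered by mean rank from the top, with blue for date 1 and red for date 2. On the deposited scaling 15 of the 25 were lower on date 2 past the test and 3 were higher, against 19.7% and 9.24% of all 1526 probe sets tested, and with the poly-A controls as the scale 12 of the 15 changed sign.

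Several of these genes were bright in exosomes and dim in the cells. On every exosome array 15 of the 25 were brighter than on any cell array, on the deposited scale, which raises the signals of arrays with little RNA signal. The median probe set also read higher there, 81.0 to 84.2 on the exosome arrays against 8.78 to 14.7 on the cell arrays. The share of all probe sets that meet the same mark was not counted, so 15 of 25 is no trait of these genes. Orly and Gm3715 were above the floor on 0 of the 4 cell arrays. Orly read 3984 and 3764 on date 1 and 3907 and 3120 on date 2 in exosomes, and 1.49 to 5.76 on the cell arrays. Gm3715 read 2581, 2452, 2734 and 2773, and its SD of 0.08 on the log2 scale was among the smallest 3 of the named top list, with Acp1 (0.07) and Gskip (0.15). Acp1, a low molecular weight phosphatase, read 666, 710, 650 and 630 in exosomes and 790 to 907 in cells. Of the 25 genes, 18 had other probe sets of their own. For 10 of these 18 another one passed the floor on every exosome array, and for 6, Shmt1, Ntmt1, Hnrnpab, Nsa2, 4932431P20Rik and Aplp2, every other one was under it throughout the exosome arrays.

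Among the genes also bright in the cells were ribosomal proteins, cyclin D2 and thymosin beta 10. Rps29, a small subunit protein, read 5341 and 5420 on date 1 and 3068 and 3592 on date 2, against 7445 to 10035 on the cell arrays. Rpl7a, of the large subunit, read 5206, 5022, 3283 and 3133. In both the arrays of date 2 were the lower ones. Ccnd2, a cyclin of the G1 phase, read 2760 and 2744 on date 1 and 1520 and 1504 on date 2. Tmsb10, an actin-binding peptide, read 3499 and 2951 on date 1 and 1214 and 1313 on date 2. The dates again stood apart, with date 2 lower in both genes.

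The exosome arrays agreed closely within a date for bright probe sets and much less between dates. Over the 246 probe sets of the top list, Pearson's r of log2(signal + 4) was 0.969 and 0.979 between arrays of the same date and 0.731 to 0.791 between arrays of different dates. The median absolute difference was 0.13 and 0.21 on the log2 scale within a date and 0.69 to 0.75 between dates. On the cell arrays, r over these probe sets was 0.993 to 0.995 within a date and 0.976 to 0.978 between dates. Each r is taken across probe sets, which do not count as independent replicates, and arrays of a date also share a station. For the list, bright on all arrays by its making, r is a description.

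**Figure D2:**
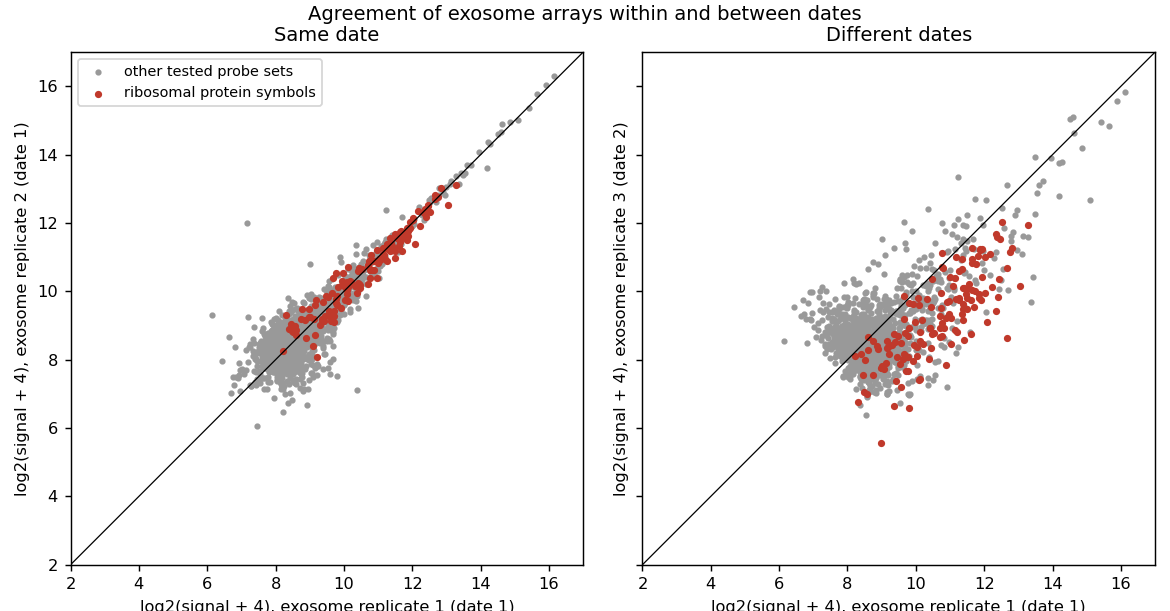
Log2(signal + 4) of the 1526 tested probe sets on exosome replicate 1 against replicate 2, of the same date, and against replicate 3, of the other date, with ribosomal protein probe sets in red and the line of equal signal. Points lie near the line within a date, and the ribosomal ones lie mostly below it between dates.

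Below the bright end agreement fell away. Over all 45037 probe sets, r was 0.496 and 0.512 within a date and 0.402 to 0.406 between dates. For the 100 probe sets with the best mean rank, the median SD over the 4 arrays was 0.46 on the log2 scale and 0.12 within a date, and 76.0% were lower on date 2. From place 15001 to 30000 in that order the median SD was 1.24 over all arrays and 1.06 within a date, and 48.5% were lower on date 2. For the bright probe sets the spread was thus mainly between dates, and for the dim ones most of it was also present within a date.

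**Figure D3:**
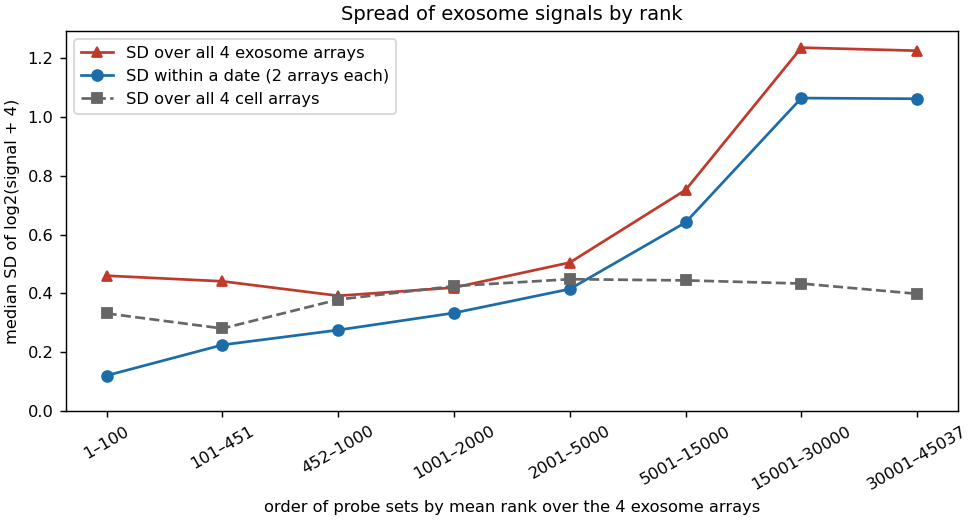
Median SD of log2(signal + 4) over all 4 exosome arrays, within a date, and over the 4 cell arrays, for probe sets grouped by their mean rank on the exosome arrays. The gap between the exosome lines is widest, as a ratio, at ranks 1 to 100 (0.46 against 0.12), and both pass 1 beyond rank 15000.

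Bright exosome signals differed between dates in many probe sets, and most of these were lower on date 2. Of the 146 tested probe sets with a ribosomal protein symbol, 69.9% fell. Tested were the 1526 probe sets whose mean log2 signal over the 4 exosome arrays lay above the mean floor, with limma on log2(signal + 4) and Benjamini-Hochberg adjustment at 0.05. Of these, 441 (28.9%) passed, 141 higher on date 2 (9.24%) and 300 lower (19.7%). The median difference of all tested probe sets was -0.24 on the log2 scale. Of the 246 probe sets of the top list, 27 rose, 120 fell and 99 did not pass, with a median of -0.58. A probe set had to be bright on both dates to be in that list. These directions hold on the deposited scaling: the median of all tested probe sets was -0.06 after quantile normalization, -1.09 when the hybridisation controls set the scale and 1.54 when the poly-A controls did.

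Genes of cytosolic ribosomal proteins fell together on the deposited scaling. Of the 82 listed, 45 had a probe set of their own, 26 passed the floor on each of the 4 exosome arrays and 37 were tested. Of the 37, 0 rose, 27 fell and 10 did not pass, and their median difference was -1.31, against -0.24 for all tested probe sets. Rpsa, the small subunit protein also known as a laminin receptor, read 5178 and 5181 on date 1 and 685 and 820 on date 2. The arrays of date 2 lay far below those of date 1, and the fitted difference was -2.78 ± 0.19 (SE; limma, adjusted p = 2.4e-05). Rpl4, of the large subunit, read 1881 and 1888 on date 1 and 227 and 457 on date 2, with replicate 3 under the floor. Rps28 read 4166 and 4481 on date 1 and 992 and 1780 on date 2, a difference of -1.70 ± 0.25 (SE; limma, adjusted p = 0.0008). Not all members moved alike: Rps24 read 1741, 1339, 1666 and 1525 in replicates 1 to 4, and its difference was 0.06 ± 0.21 (SE; limma, adjusted p = 0.84).

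The sign of the ribosomal difference against 0 depended on the scaling. Relative to the median of all tested probe sets, the median of the 37 genes was -1.07 on the deposited scaling and -0.77 after quantile normalization. Scaling an array by control probe sets multiplies all its signals alike and so leaves this gap nearly as it is, which makes those scalings no test of it. Against 0 the median was -2.17 with 37 falls under the hybridisation controls, 0.48 with 1 rise and 0 falls under the poly-A controls, and -0.83 with 1 rise and 16 falls after quantile normalization. Which control reflects equal input on the arrays was not tested.

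On the cell arrays of the same dates ribosomal protein genes were higher on date 2 on the deposited scaling. Of the 37 genes, 26 rose and 1 fell there, and their median was 0.27. When the hybridisation controls set the scale 0 rose and 37 fell in cells, with a median of -0.45, the same direction as in exosomes. With the poly-A controls 35 rose, and after quantile normalization 2 rose and 5 fell. The cell background is 590 of the 1526 probe sets (38.7%), 338 higher (22.1%) and 252 lower (16.5%). The difference of date differences, exosome minus cell, passed for 468 probe sets (30.7%), 190 positive (12.5%) and 278 negative (18.2%). It was negative past the test for 27 of the 37 ribosomal protein genes and positive for 0. When the poly-A controls set the scale 8 passed, all negative, and after quantile normalization 9, all negative. For Rpsa it was -3.17 (limma, adjusted p = 3.1e-05). Across all probe sets with a ribosomal protein symbol, those with several symbols included, 0 rose and 102 of 146 fell in exosomes, while 115 rose and 2 fell in cells. Of the 405 tested probe sets with no symbol, 55 rose and 71 fell in exosomes. Of the 441 probe sets that passed in exosomes, 220 also passed in cells, 67 of them in the same direction and 153 in the opposite one, on the deposited scaling.

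**Figure D4:**
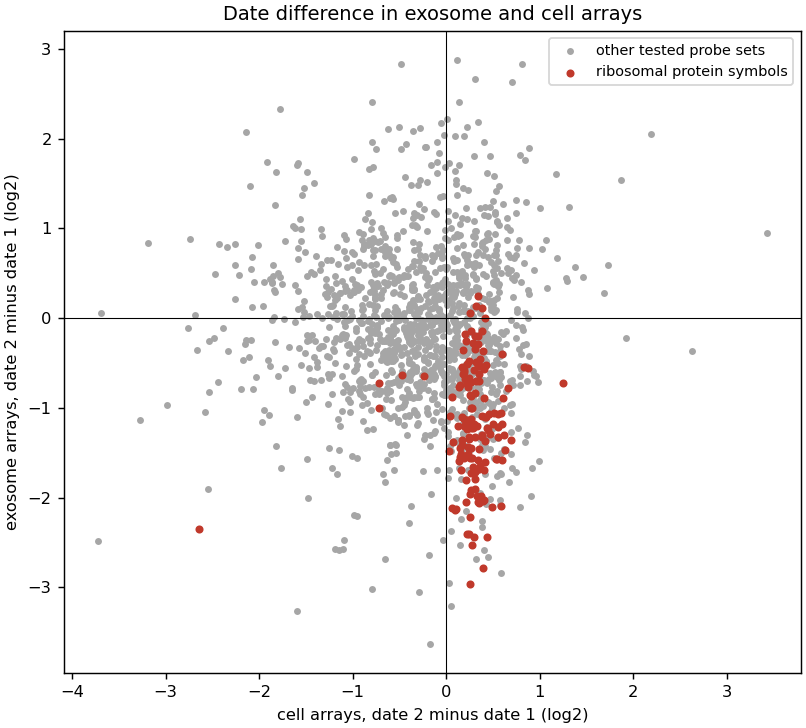
Difference between dates (date 2 minus date 1, log2) of each tested probe set on the exosome arrays, up the page, against the cell arrays, with ribosomal protein probe sets in red. Most red points lie below 0 on the exosome axis (median -1.20) and a little above 0 on the cell axis (median 0.30), on the deposited scaling.

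Other groups of housekeeping genes are read against the 9.24% of all tested probe sets that rose and the 19.7% that fell. Of 12 tested genes of translation factors, 1 rose and 3 fell, near those shares, with a median of -0.20. Those 3 were Eef1a1 and Eef2, the elongation factors, and Tpt1, which is listed with them and whose message also begins with a pyrimidine tract. Eef1a1 read 2354 and 2780 on date 1 and 553 and 1125 on date 2, with date 2 lower on both arrays. Of 10 tested genes of oxidative phosphorylation, 1 rose and 5 fell, with a median of -0.79. Cox5b, a subunit of cytochrome c oxidase, read 1104 and 1160 on date 1 and 570 and 604 on date 2. Of 9 tested cytoskeleton genes 0 rose and 2 fell, Tmsb10 among them, and of 5 tested glycolysis genes 0 passed in either direction. Counts in lists this small were not tested against the shares. Of 3 tested chaperone genes, 1 rose and 1 fell. Hspa8, a constitutive Hsp70 protein, read 1004 and 1056 on date 1 and 576 and 677 on date 2. Hsp90aa1 read 226 and 160 on date 1, under the floor on both arrays, and 646 and 701 on date 2. Hspa8 fell by 0.72 in log2 units (limma, adjusted p = 0.049), and Hsp90aa1 was at least 2.55-fold higher on date 2. After quantile normalization, or with the background median subtracted, 1 of the 3 rose and 0 fell, so the fall of Hspa8 was not called there. When the poly-A controls set the scale, 0 genes of these lists fell.

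The largest falls among named genes were in transcripts of varied function. They were picked for the size of their difference, so their values are a description. Trappc6b, a subunit of the TRAPP complex of vesicle transport, read 1295 and 2613 on date 1 and 148 and 143 on date 2. Both arrays of date 2 were under the floor, and the signal was at least 6.33-fold lower there. AY036118 read 10534 and 8987 on date 1 and 821 and 1345 on date 2, a difference of -3.21 ± 0.23 (SE; limma, adjusted p = 2.5e-05), while the cells read 527 to 573 on both dates. Hnrnpab, an RNA-binding protein of the nucleus, read 11065 and 11339 on date 1 and 1363 and 2235 on date 2. Naaa, a lysosomal amidase, read 2001 and 2763 on date 1 and 363 and 228 on date 2. In each of these the dates did not overlap. When the poly-A controls set the scale, the 10 falls kept their sign and 9 of them, all but Trappc6b, missed the threshold. The other falls of this rank were in Prpf19, Rpsa, Csnk2a1, C130026I21Rik, Bmf and Rpl4. Of the 7 genes with other probe sets of their own, 0 had another that passed the floor on every exosome array.

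The largest rises mostly started from under the floor. Of the 10 genes, 7 were under it on both arrays of date 1, so only a bound can be given for them. On no cell array were 5 of the 10 above it, against 43.4% of all probe sets. Atf2, a transcription factor of the stress response, read 121 and 132 on date 1 and 1013 and 897 on date 2, at least 3.61-fold higher. Qk, the RNA-binding protein quaking, read 117 and 183 on date 1 and 1003 and 891 on date 2, at least 3.58-fold higher. Both were high on date 2 alone. Hnrnpf, a splicing regulator, was above the floor throughout, at 423 and 490 on date 1 and 1845 and 1899 on date 2, a difference of 2.03 ± 0.23 (SE; limma, adjusted p = 0.00017). The cells read 1772 to 2501 for Hnrnpf, with overlapping dates. 4933438K21Rik read 547 and 525 on date 1 and 2143 and 2418 on date 2, and the other rises of this rank were in Snai2, 2410018L13Rik, Zfp207, Nup160, Wee2 and Stox2. Of the 10 genes, 9 had other probe sets of their own. For 1 of these 9, Hnrnpf, another passed the floor on every exosome array. For 6, Qk, Snai2, 2410018L13Rik, Zfp207, Nup160 and Wee2, every other one was under it throughout the exosome arrays, date 2 included.

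Control probe sets moved with the dates, and their part in the differences above was not tested. The probe set for the middle of 18S ribosomal RNA, which has no poly-A tail and should be little labelled, read 8622 and 10678 on date 1 and 556 and 611 on date 2. The dates stood wide apart, and the cell arrays read 48.6 and 48.3 on date 1 and 26.4 and 21.2 on date 2. As a percent of the hybridisation controls, labelled transcripts added to each hybridisation, the exosome values were 55.2% and 73.0% on date 1 and 2.36% and 1.90% on date 2. The cell values averaged 6.94% on date 1 and 2.08% on date 2 (n = 2 each). The hybridisation controls themselves had geometric means of 15620 and 14624 on date 1 and 23526 and 32118 on date 2. The poly-A controls, bacterial transcripts that can be added before labelling, went the other way, at 1891 and 1922 on date 1 and 361 and 833 on date 2. On the cell arrays the poly-A controls were also lower on date 2, at 201 and 212 against 25.5 and 57.9. A single value on 2 arrays against 2 cannot pass, since the smallest two-sided exact permutation p is 0.33.

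**Figure D5:**
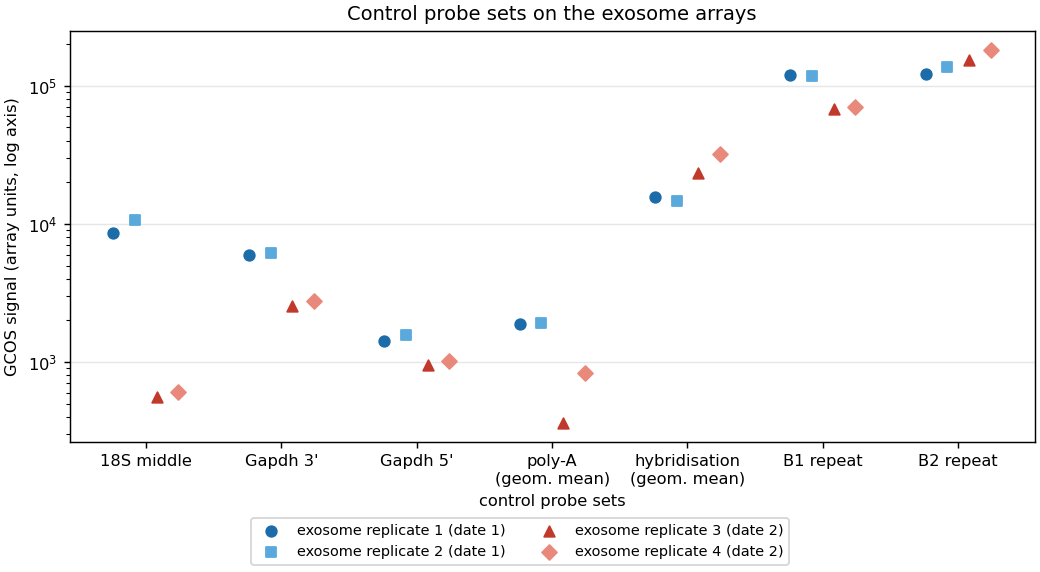
Signal of control probe sets on the 4 exosome arrays (log axis, array units), blue for date 1 and red for date 2. The 18S, Gapdh, poly-A and B1 repeat signals lie lower on date 2, and the hybridisation controls and the B2 repeat lie higher.

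Gapdh, a glycolytic enzyme, has control probe sets at both ends and in the middle of its message. Its ratio of 3′ to 5′ signal was 4.15 and 3.92 on date 1 and 2.67 and 2.72 on date 2 on the exosome arrays. On the cell arrays it was 0.853 and 0.811 on date 1 and 0.979 and 1.20 on date 2. All exosome arrays lay above all cell arrays, by 1.80 on the log2 scale (two-sided exact permutation test, p = 0.029, which is the lowest p this design allows), by 2.28 within date 1 and 1.32 within date 2. For beta-actin the ratio was 2.32 and 5.19 on date 1 and 4.20 and 10.6 on date 2 against 1.40 to 2.39 in cells (exact permutation test, p = 0.057), with the 5′ probe set above the floor on 1 exosome array. On exosome replicate 3 the 3′ probe set, at 140, was also under the floor of 267. Where a signal was under the floor, the beta-actin ratio is not a measured size.

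Repeat transcripts were bright as well. The control probe set for the B1 repeat, a short interspersed element of mouse genomes that many transcripts carry, read 119854 and 117969 on date 1 and 68268 and 70444 on date 2. That for the B2 repeat read 122376 and 137884 on date 1 and 152845 and 182139 on date 2. The B1 signal was lower and the B2 signal higher on date 2, and on the cell arrays the ranges were 1042 to 3135 for B1 and 8470 to 9449 for B2.

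Markers of the parent cell type passed the floor on the exosome arrays about as seldom as genes in general. Of 18 mast cell marker genes with a probe set of their own, 0 passed the floor on each of the 4 exosome arrays and 13 (72.2%) passed it on none, against 1.67% and 80.2% of all genes. Their summed signal was 1853 to 2887, against 48051 to 53438 on the cell arrays. Cpa3, the granule carboxypeptidase, read 157, 149, 341 and 136 in exosomes and 7404 to 9274 in cells. Fcer1a and Ms4a2, the alpha and beta chains of the IgE receptor, read 332 and 321 on date 1 and 146 and 252 on date 2, and 389 and 231 on date 1 and 169 and 153 on date 2. Kit read 75.5 to 116 on the exosome arrays. The receptor chains passed the floor on 2 arrays (Fcer1a) and 1 array (Ms4a2), Cpa3 on 1 and Kit on 0, so these transcripts were mostly not detectable at the signal of these arrays. Among the 10 T cell markers 1 passed the floor on every exosome array, Zap70, at 436, 623, 459 and 576, with its 2 other probe sets under the floor throughout, and Cd5 and Cd8a were under it on all 4. Of the markers of B and plasma cells (7), erythroid cells (4), macrophages (8), neutrophils (7), platelets (7), fibroblasts (6) and hepatocytes (5), 0 were above the floor on all 4.

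Genes of vesicle sorting were above the floor about as often as genes in general. Of 37 genes of exosome and endosome sorting, 1 (2.70%) was above it on all 4 arrays, Cd151, a tetraspanin of cell and vesicle membranes, and 28 (75.7%) on none, against 1.67% and 80.2% of all genes. The 5 other probe sets of Cd151 were under the floor on all 4 exosome arrays. Sdcbp, the syntenin of exosome formation, read 161 to 242 in exosomes and 2081 to 2897 in cells. Of 21 genes of small RNA and RNA-binding proteins, 2 (9.52%) passed on all 4, Ybx1 and Tnrc6c, and 11 (52.4%) on none. The 2 other probe sets of Tnrc6c were under the floor throughout. Of the 2 others of Ybx1, 0 passed it on every exosome array. Ybx1, a Y-box protein known to bind RNA in vesicles, read 566 and 713 on date 1 and 299 and 413 on date 2. Its dates did not overlap, and the difference did not pass (-0.85 ± 0.32, SE; limma, adjusted p = 0.071).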

How the data were processed

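RNA of MC/9 exosomes and cells was measured on 8 arrays, 4 per group. The intensity values per probe set were deposited by the authors on a linear scale, as signals of the Affymetrix software GCOS (version not given), which the submitters' processing notes name. How probes were summarised and background treated is not given in the sources used here. Their trimmed mean is 100 on each array, so arrays with little signal are raised, background included. The other settings deposited by the authors, per the file headers, gave the hybridisation dates and stations, and the files of cell replicates 3 and 4 were identical.

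Of 45101 probe sets, 64 controls were left out of tests. Genes were named from the platform annotation where it gave 1 symbol (34945 probe sets). It gave several for 932 and none for 9160, and 34741 matched RefSeq gene IDs (GRCm38.p6). One probe set, the brightest in exosomes, stood for a gene, which favours probe sets bright there. Named were the 25 best-ranked genes, the 10 largest called rises and falls without overlap, those of smallest and largest spread, those at the edge of the top 1%, up to 3 of each list and 8 genes in any case. Of these, Gapdh has no probe set with a single symbol. Members, 22 gene lists and tests were chosen with earlier results of these data known.

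Differences were fitted with limma 3.58.1 in R 4.3.3 (lmFit, eBayes with trend) on log2(signal + 4), a scale that understates changes of dim probe sets, with Benjamini-Hochberg adjustment over 1526 probe sets. The date fit used the exosome arrays, and the difference of date differences all 8. The fit of all 8 gave exosome and cell arrays a shared variance, though their spread differed. Over the tested probe sets the median absolute log2 difference within a date was 0.29 and 0.33 in exosomes and 0.17 and 0.21 in cells. With arrays weighted by source 477 differences of date differences passed, against 468. Where the dimmer date was under the floor on both arrays, a fold is a bound against the higher of floor and signal. With so few arrays, p-values may measure technical spread alone. On simulated data the date test recovered 40% of log2 changes of 1, 68% of 2, 92% of 3 and 94% of 4, with 10 of 157 calls false. The simulated noise was independent, with the spread seen within a date and no shift of scale between arrays. These shares therefore do not cover shifts of scale between the dates. Same-numbered exosome and cell arrays did not deviate together. Alternatives were other normalizations, floors, pseudocounts and filters, and leaving out each array.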

Additional observations from a re-analysis of the deposited data

Results flagged for a closer look

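In 6 of 110 named probe sets and in 1 of 16 other leading ones, a single exosome array stood apart from the other 3. Chance alone would set about 1 in 20 such groups apart. Nsa2 was low in replicate 4 (2150, against 2802 to 2886), Gskip low in replicate 3 (625, against 766 to 780) and Senp3 low in replicate 2 (359, against 495 to 507). Ighm was low in replicate 1 (175), and Dcn and Cpa3 were high in replicate 3 (225 and 341). The unnamed probe set 1458382_a_at was high in replicate 2 (30322, against 25353 to 25505). Ighm and Cpa3 were under the floor in all but replicate 3, and Dcn in all 4.

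The difference of date differences passed for 30.7% of all 1526 probe sets and for 68.9% of the 441 called in exosomes. For 17 of the 20 date differences named for their size, the exosome difference differed from that of the cells past the test (limma, Benjamini-Hochberg adjustment over 1526 probe sets). Exosome minus cell, on the log2 scale, it was 2.75 for Atf2, 2.02 for Snai2, 2.35 for Qk, 3.20 for 2410018L13Rik, 4.10 for Zfp207, 1.90 for Nup160, 2.43 for 4933438K21Rik and 1.84 for Hnrnpf. It was -3.46 for Trappc6b, -3.26 for AY036118, -2.22 for Naaa, -3.42 for Prpf19, -3.17 for Rpsa, -2.02 for Hnrnpab, -3.11 for Csnk2a1, -2.99 for C130026I21Rik and -2.81 for Rpl4. It did not pass for Wee2, Stox2 and Bmf. For Atf2, Snai2, Qk, Zfp207, Nup160, Trappc6b, Prpf19 and Csnk2a1 both exosome arrays of the dimmer date were under the floor, and Snai2, 2410018L13Rik and 4933438K21Rik were under it on all cell arrays. Their values are fitted against background and are not measured sizes. Since genes were picked for a large exosome difference, these values are a description.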

How the results depend on the processing

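Scaling decided most. The count of date differences in exosomes, 441, was 871 with arrays scaled to the hybridisation controls (35 higher, 836 lower), 264 with no filter and 278 when the floor had to be passed on every exosome array. With the poly-A controls, a scaling added after the data were seen, it was 561 (560 higher, 1 lower), and after quantile normalization 352 (176 each way). The difference of date differences, 468, became 254 after quantile normalization and 76 with the poly-A controls. The 27 falls of ribosomal protein genes became 16 after quantile normalization and 0 with the poly-A controls, and their 27 negative differences from cells became 9, 8 and, with no filter, 12. The 26 rises of these genes in cells became 2 after quantile normalization and 0 with the hybridisation controls. Leaving out single arrays gave 385 to 456, 367 to 486, 26 to 30 and 25 to 30 calls for the exosome counts and differences. The cause of each shift other than a change of scale or of the number tested was not tested.

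Same-numbered exosome and cell arrays did not deviate together (r of -0.01 to -0.03 around group and date means). With the replicate block 441 differences of date differences passed, and 28 of ribosomal protein genes, as a check and not a design.

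The top list of 246 held 137 at 0.5%, and 253 to 278 with an array left out. The 671 above the floor became 232 at the 99th percentile, 1244 at the 90th, and 741 to 911 with an array left out. The mean correlation of 0.437 was 0.745 over probe sets above the floor on average. The 3′ to 5′ difference of 1.80 was 1.44 for beta-actin and 1.69 to 1.91 with an array left out, where the smallest two-sided p is 0.057.

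Named genes with a called difference, 36, kept direction in all but 17 of 490 alternatives. Their dates did not overlap, so leaving out an array or changing the pseudocount or filter could not turn a sign. The same holds for the 20 largest changes below, so these totals are no measure of stability. Turns came with the scalings: 12 of the 36 with the poly-A controls, 3 after quantile normalization and 2 with the hybridisation controls. With the poly-A controls the sign turned for Bzw2 (1.30), Mtm1 (1.22), Rps29 (1.10), Rpl7a (1.12), Pisd-ps3 (1.15), Rpl38 (1.03), Rps2 (0.44), Rpl37a (0.10), Rps28 (0.10), Ccnd2 (0.93), Tmsb10 (0.45) and Rpl35 (0.48). After quantile normalization it turned for Rps29 (0.032), Rpl7a (0.069) and Pisd-ps3 (0.059), and with the hybridisation controls for Gm9222 (-0.29) and 2610005L07Rik (-0.18). The 20 largest changes kept direction in all 266 alternatives and lost the call in 11. Signals near the floor limit every dim gene, and the number of arrays limits precision.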
